A study of Mus musculus with 28 samples.

Results

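The defensin genes were placed in maps of H3K9me2, a histone mark of repressed chromatin, in mouse embryonic stem cells (mESCs) and 2-cell-like cells (2CLCs). Every protein-coding gene of the mouse annotation whose symbol starts with Defa (alpha-defensins) or Defb (beta-defensins) was taken, which gave 64 of 21755 protein-coding genes. Of these, 22 were alpha-defensin and 42 were beta-defensin genes. Starts separated by over 1 Mb were assigned to different clusters, and 5 clusters resulted on chromosomes 1, 2, 8 and 14.

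The assay was ULI-NChIP, in which native chromatin from few cells is immunoprecipitated, and the series holds 28 libraries, of which 14 were immunoprecipitates and 14 were input chromatin. All cells came from BL6/129 hybrid mESCs in which the endogenous Ehmt2 gene encodes a protein fused to a degron (cell line EHMT2-dTAG-mcherry). EHMT2 is a methyltransferase of H3K9, dTAG-13 triggers degradation of the tagged protein, and DMSO is the solvent control, so the controls carry the same allele. Bulk mESCs were held in DMSO for 24 h, with 2 immunoprecipitates and 2 inputs. The other cells carried a MERVL-GFP reporter in addition (EHMT2-dTAG-mcherry MERV-GFP), spent 72 h in DMSO or dTAG-13, and were separated by sorting into mESCs without GFP and 2CLCs with GFP, a transient state of mESC cultures that shares features with the early embryo. This gave 4 sorted groups (mESC DMSO, mESC dTAG, and likewise 2CLC DMSO and 2CLC dTAG) with 3 immunoprecipitates and 3 inputs each, all from a single clone. Where 4 values follow each other without names, they stand in this order. The labels give the retinoic acid receptor agonist TTNBP to 2 replicates that they do not name, whereas the methods set no such limit.

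The values are positions of H3K9me2 domains, broad stretches called on a grid of 5 kb bins. A domain was seeded where the ratio of immunoprecipitate to input was high relative to the rest of the genome and was extended on both sides until that ratio was low, so it can include bins of intermediate ratio. There is a single list for each sorted group and a further list whose name gives neither cell state nor treatment, called the unnamed set here. No list has replicates, so no difference between lists could be set against the spread between cultures, no test was possible, and the depth of the libraries behind each list is unknown. The mESC sets held 4323 (DMSO) and 7312 (dTAG) domains and the 2CLC sets held 4246 (DMSO) and 8820 (dTAG), and these covered 53.7%, 46.3%, 51.5% and 48.4% of chromosomes 1 to 19 and X. A domain is a call on relative enrichment and not an amount of the mark.

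Defensins are small cationic peptides, held together by disulfide bonds, that permeabilise microbial membranes. Mouse alpha-defensins, also called cryptdins, are stored in granules of Paneth cells at the base of the crypts of the small intestine. Beta-defensins are made by many epithelia, and a large share of them is expressed in the epididymis, where some coat maturing sperm. The genes lie in arrays that grew by tandem duplication, so neighbouring members are often near-identical in sequence and are not independent of each other. None of these tissues was sampled, and no expression was measured.

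The alpha-defensin genes all lay in domains in the 4 sorted sets, whereas 16 of the 18 beta-defensin genes outside chromosome 8 lay in none. Upstream sequences of both groups are given first. RefSeq (GRCm38.p6) held a promoter for 41 of the 64 members. Both alpha-defensin promoters below come from the large chromosome 8 cluster, in which every start was inside a domain in all 5 sets. They are given as the 250 bases before the RefSeq start, with TATAAA and ATCAAAG in capitals. TATAAA is the core of the TATA box, and ATCAAAG is a core of the site bound by TCF/LEF factors, which act in Wnt signalling. The sequences are Defa21 (chr8:21025295-21025544, plus strand, GRCm38.p6) and Defa20 (chr8:21509008-21509257, plus strand, GRCm38.p6).
Defa21: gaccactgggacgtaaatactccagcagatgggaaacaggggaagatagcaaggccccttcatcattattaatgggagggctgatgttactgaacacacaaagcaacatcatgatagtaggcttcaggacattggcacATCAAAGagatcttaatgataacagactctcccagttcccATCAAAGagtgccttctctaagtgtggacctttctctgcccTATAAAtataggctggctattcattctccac
Defa20: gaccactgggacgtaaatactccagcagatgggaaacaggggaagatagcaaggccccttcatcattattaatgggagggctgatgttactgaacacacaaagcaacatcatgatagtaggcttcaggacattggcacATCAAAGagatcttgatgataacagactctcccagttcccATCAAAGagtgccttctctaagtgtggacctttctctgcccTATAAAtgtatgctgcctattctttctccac

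In both promoters TATAAA began 31 bases and ATCAAAG began 112 and 72 bases before the start, on the strand of the gene. Counted over 300 bases (250 before and 50 after the start) without gaps, Defa21 and Defa20 shared 293 bases, and Defa21 and Defa22 shared 300. These are high values. Over the 10 pairs of 5 alpha-defensin promoters compared, the median was 69 bases (67 to 300). Over 120 pairs of 16 beta-defensin promoters it was 77 (52 to 95). Only promoters whose RefSeq start was also the start used for the domains were compared. TATAAA began 31 bases before the start in Defa21, Defa22 and Defa20, and 46 bases before it in Defa35 and Defa37. Pairs across these groups shared 67 to 69 bases, whereas Defa35 and Defa37 shared 294. The sequences were not aligned, so the medians do not measure how alike the promoters are. Searched on both strands, ATCAAAG occurred in 12 of 12 alpha-defensin promoters and in 0 of 29 beta-defensin promoters, against 3.18% of all 16433 protein-coding promoters. TATAAA occurred in 11 of 12 alpha-defensin promoters, with Defa28 as the exception, and in 5 of 29 beta-defensin promoters, against 12.9% of all promoters. The motifs do not overlap. In the alpha-defensin promoters TATAAA began 61 to 29 bases and ATCAAAG 142 to 70 bases before the start. Several of these promoters are near-identical copies, so the counts are not independent. A match is a run of letters and not a measured binding site.

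Of the clusters outside chromosome 8, one lay in domains throughout and the others lay outside the domains of the 4 sorted sets. The first member of each that had a RefSeq promoter is shown, again with TATAAA and ATCAAAG in capitals. These are Defb41 (chr1:18265139-18265388, minus strand), Defb23 (chr2:152464621-152464870, minus strand) and Defb48 (chr14:62984511-62984760, minus strand), all in GRCm38.p6.
Defb41: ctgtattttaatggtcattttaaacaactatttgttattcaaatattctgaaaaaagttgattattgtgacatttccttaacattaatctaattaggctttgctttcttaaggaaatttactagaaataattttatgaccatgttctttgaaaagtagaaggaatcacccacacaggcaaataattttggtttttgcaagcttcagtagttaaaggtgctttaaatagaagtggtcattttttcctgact
Defb23: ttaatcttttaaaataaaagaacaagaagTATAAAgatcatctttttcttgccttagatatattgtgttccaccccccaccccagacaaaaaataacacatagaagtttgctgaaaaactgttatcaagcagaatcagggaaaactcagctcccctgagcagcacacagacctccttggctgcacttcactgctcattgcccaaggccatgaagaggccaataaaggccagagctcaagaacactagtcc
Defb48: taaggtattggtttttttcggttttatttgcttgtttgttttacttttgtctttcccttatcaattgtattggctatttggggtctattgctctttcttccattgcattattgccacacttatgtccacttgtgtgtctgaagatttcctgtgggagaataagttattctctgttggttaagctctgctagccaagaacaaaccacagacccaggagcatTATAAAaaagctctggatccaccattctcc

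Defb41, a gene expressed in the epididymis, had neither motif. Defb48 had TATAAA 30 bases before its start, and Defb23 had it 221 bases before. Defensin promoters held few CpG dinucleotides whether or not the gene lay in a domain. The median was 1 CpG in 300 bases (range 0 to 8) over the 41 defensin promoters, against 14 (0 to 65) over all 16433. It was 1 over the 24 promoters of members in domains of all 4 sorted sets and 3 over the 14 promoters of members in none. Promoters were placed at RefSeq starts, which can differ from the starts used for the domains. The distance was 12114 bases for Defb30 and 2914 bases for Defb45, both among the 14, and at most 111 bases for the others. The ratio of observed to expected CpG had a median of 0.065 over defensin promoters and 0.604 over all promoters, and the median GC content was 47.7% against 57%.

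Most defensin starts lay inside H3K9me2 domains, in both cell states and with or without dTAG-13. In mESC DMSO, 48 of 64 starts (75%, Wilson 95% interval 63.2 to 84) were in a domain, against 22.3% of all protein-coding starts. In mESC dTAG it was 46 (71.9%, 59.9 to 81.4), against 23.6%. In 2CLC DMSO it was 47 (73.4%, 61.5 to 82.7), against 23.2%, and in 2CLC dTAG it was 45 (70.3%, 58.2 to 80.1), against 26.5%. The defensin share was thus close to the same in the 4 sorted sets and above the share over all genes in each. In the unnamed set 53 of 64 starts (82.8%, 71.8 to 90.1) were in a domain, against 30% of all starts. These intervals cover counting of members and are too narrow, since the members sit in 5 clusters and share domains. Without the 32 members of the Defb33 to Defb13 cluster, the largest, the shares in the 4 sorted sets were 50%, 43.8%, 46.9% and 40.6%.

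**Figure D1:**
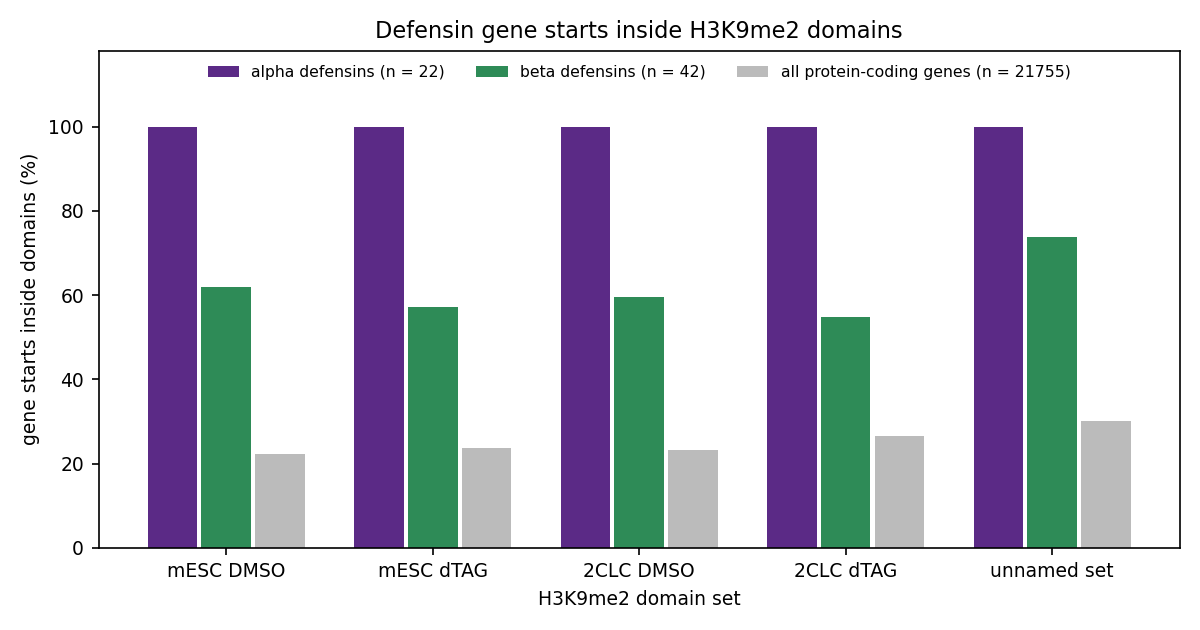
Share of gene starts inside H3K9me2 domains (y axis, percent) in each domain set (x axis) for the 22 alpha-defensin, the 42 beta-defensin and all 21755 protein-coding genes. The alpha-defensin bars stand at 100% in every set, the beta-defensin bars between 54.8% and 73.8%, and the bars of all genes between 22.3% and 30%; each bar is a share from a single list, with no replicate error.

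Across the 4 sorted sets, 44 members were in a domain in all of them (15.1% of all starts were), 16 in none (65.8%) and 4 in some (19.1%). The alpha-defensin genes made up 22 of the 44, and all 22 were in a domain in each of the 5 sets. The beta-defensin genes were divided by position. On chromosome 8, 24 (DMSO) and 22 (dTAG) of 24 were in domains in mESCs, and 23 (DMSO) and 21 (dTAG) were in 2CLCs. On the other chromosomes 2 of 18 were, in each sorted set. The share over all protein-coding starts on chromosome 8 was 17.4%, 21%, 16.4% and 20.7% in the same order, so the chromosome as a whole did not stand above the genome.

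Few members changed state with dTAG-13. In mESCs 2 of the 48 starts inside DMSO domains lay outside domains in dTAG. Among all protein-coding starts inside DMSO domains this share was 22.7%. Of the 16 starts outside DMSO domains 0 entered, against 8.14% of all protein-coding starts outside them. In 2CLCs 2 of 47 left, against 18.3%, and 0 of 17 entered, against 9.8%, with the same denominators. Members share domains, so their shares rest on few loci and are not comparable to rates over the genome. In mESC DMSO 34 of the 48 starts shared a domain of 2660 kb and 12 shared a domain of 370 kb. In 2CLC DMSO 34 shared a domain of 2655 kb and 10 shared a domain of 285 kb. The leaving members were Defb40 and Defb3 in mESCs and Defb46 and Defb3 in 2CLCs, and all of them belong to a single cluster of beta-defensin genes. No alpha-defensin start changed state in either cell state.

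The chromosome 8 locus holds 46 of the 64 members. From the first base of Defb40 to the last base of Defb13 it spans chr8:18974940-21948850 in mm10, or 2974 kb, with 16 other protein-coding starts between. It consists of the Defb40 to Defb7 cluster of 14 beta-defensin genes and the Defb33 to Defb13 cluster of 22 alpha-defensin and 10 beta-defensin genes, with 1398 kb between the nearest starts. In mESCs, domains covered 99.8% of the locus with DMSO and 97.7% with dTAG. In 2CLCs they covered 98.3% with DMSO and 66.4% with dTAG. In the unnamed set a single domain of 3045 kb covered all of it, and it held all 46 starts.

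The domains broke into more pieces in dTAG, although nearly all starts stayed inside one. In mESC DMSO the locus was held by 2 domains, of 370 and 2660 kb, with 12 and 34 members. In mESC dTAG there were 3, of 170, 120 and 2640 kb, with 5, 5 and 34 members. In 2CLC DMSO there were 3 as well, of 285, 45 and 2655 kb, with 10, 1 and 34 members. In 2CLC dTAG there were 8, of which the 5 with members were 180, 80, 245, 865 and 200 kb wide and held 6, 3, 2, 23 and 9 starts. Measured in bases, mESC dTAG kept 2906 kb of the DMSO domains over the locus (97.9%), lost 63 kb and gained 0. The corresponding values in 2CLCs were 1969 kb kept (67.3%), 955 kb lost and 5 kb gained. Domains were more numerous in dTAG over the whole genome too.

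**Figure D2:**
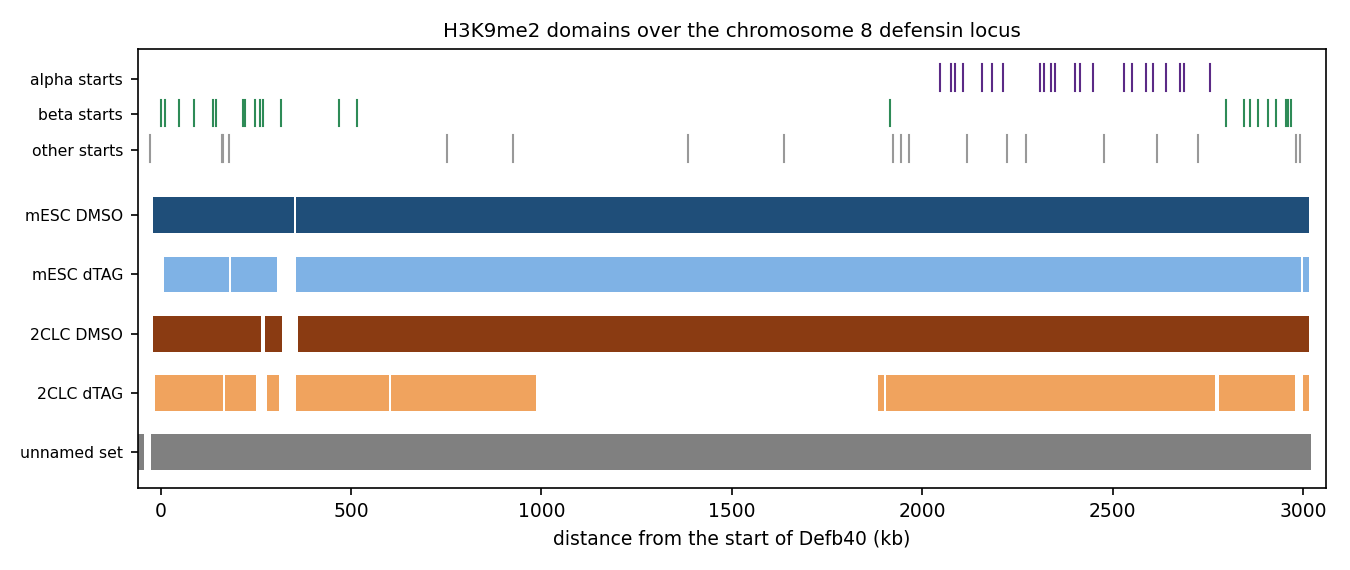
Map of the chromosome 8 locus, with distance from the start of Defb40 (x axis, kb) and, from top to bottom, the starts of alpha-defensin, beta-defensin and other protein-coding genes as ticks and the domains of each set as bars. The 900 kb without a domain in 2CLC dTAG lie between the clusters and hold no defensin start, and the 22 alpha-defensin starts lie over bars in all 5 sets.

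Nearly all of the loss in 2CLC dTAG was a single stretch of 900 kb between the clusters, chr8:19962983-20862981. It held 0 defensin starts and the starts of Gm15319 and Gm21119. In the assembly 27.8% of its bases are unsequenced (N). Of its sequenced 50-mers, 72.2% have another copy on the same strand of the chromosome, against 6.76% of chromosome 8 as a whole. The other 3 sorted sets and the unnamed set had a domain across it. Reads with several best matches were placed at random among them by the authors' alignment, and the part of unsequenced and repeated sequence in this difference was not tested.

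The outer borders of the locus were close in most sets on the Defb40 side. On the Defb13 side they met only under a rule that joined neighbouring domains. On the side of Defb40 the first domain base lay 20.3 kb before the Defb40 start in mESC DMSO and in 2CLC DMSO, 15.3 kb before it in 2CLC dTAG and 24.2 kb before it in the unnamed set. In mESC dTAG it lay 9.73 kb inside, past the Defb40 start. The neighbouring gene Xkr5, which starts 27.3 kb before Defb40, was outside domains in all 5 sets. On the side of Defb13 the last domain base, with gaps of up to 20 kb joined, was chr8:21992979 in all 4 sorted sets, 46.2 kb past the Defb13 start. In 2CLC dTAG the gap joined was itself 20 kb wide, so the shared last base follows from this setting, and no other setting was tried. Gaps on the side of Defb40 were not joined. There, in the unnamed set, a gap of 20 kb that holds the Xkr5 start separated a further domain. The domain that held Defb13 reached this base in both DMSO sets. It ended 26.2 kb past the Defb13 start in mESC dTAG and 11.2 kb past it in 2CLC dTAG, where the last base belonged to a separate domain. Base chr8:21992979 lies 194 bases inside the 3′ end of Atp7b, which encodes a copper transporter. The joined domains thus ended at the far end of that gene, 67.3 kb from its start. The unnamed set ended 6258 bases inside the same gene. The starts of Atp7b and its neighbour Alg11 were outside domains in all 5 sets, whereas Fam90a1a and Ccdc70, between Defb13 and Atp7b, were inside in all sets but 2CLC dTAG.

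Within the locus 1946 kb (65.4%) and 42 of 46 members were in domains of all 4 sorted sets. A single 5 kb bin, chr8:19327984-19332983, was outside domains in all 4. It lies between Defb3 and Defb8, overlaps no annotated gene, and 82.6% of it is soft-masked as interspersed or simple repeat. Of the 50-mers in it, 1.68% have another copy on the same strand of chromosome 8. The unnamed set, called on another grid, had no break there.

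The 4 members that differed among the sorted sets were all in the Defb40 to Defb7 cluster, and 3 of them have a RefSeq promoter. The 250 bases before the start are given with CpG in capitals, for Defb46 (chr8:19239666-19239915), Defb5 (chr8:19247342-19247591) and Defb3 (chr8:19293111-19293360), all on the plus strand of GRCm38.p6.
Defb46: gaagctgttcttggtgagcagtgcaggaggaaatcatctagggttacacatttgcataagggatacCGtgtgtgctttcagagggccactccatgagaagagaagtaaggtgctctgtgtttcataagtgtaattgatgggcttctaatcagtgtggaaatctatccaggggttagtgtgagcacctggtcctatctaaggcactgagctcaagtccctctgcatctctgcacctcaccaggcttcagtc
Defb5: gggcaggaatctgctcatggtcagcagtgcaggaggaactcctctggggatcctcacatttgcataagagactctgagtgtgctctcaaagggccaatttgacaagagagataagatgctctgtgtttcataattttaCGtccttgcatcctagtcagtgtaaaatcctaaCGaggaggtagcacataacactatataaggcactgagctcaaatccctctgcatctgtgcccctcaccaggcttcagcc
Defb3: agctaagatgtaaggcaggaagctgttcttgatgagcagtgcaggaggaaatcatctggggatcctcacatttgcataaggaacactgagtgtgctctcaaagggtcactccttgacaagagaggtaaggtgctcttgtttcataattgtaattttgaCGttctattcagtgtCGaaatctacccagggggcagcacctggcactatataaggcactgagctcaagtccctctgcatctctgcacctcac

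Over 300 bases each held 1 or 2 CpG, within the range of 0 to 8 over all defensin promoters, and neither TATAAA nor ATCAAAG. Defb40 was inside a domain of 370 kb in mESC DMSO and inside domains of 285 kb (DMSO) and 180 kb (dTAG) in 2CLCs, and lay 9.73 kb outside the nearest domain in mESC dTAG. This gene, expressed in the epididymis, is the outermost member of the locus, and its state followed the position of the locus border. Defb46 was 88.1 kb inside the edge of a domain in mESC DMSO, 43.1 kb inside in mESC dTAG and 3.07 kb inside in 2CLC DMSO, and was 11.9 kb outside in 2CLC dTAG. Defb5 was 80.4 kb inside in mESC DMSO and 35.4 kb inside in mESC dTAG, and was 4.6 kb outside in 2CLC DMSO and 10.4 kb outside in 2CLC dTAG. Defb5 was thus outside domains in both 2CLC sets and inside in both mESC sets. Defb3, a beta-defensin induced in infected epithelia, was 34.6 kb inside in mESC DMSO and 4.62 kb inside in 2CLC DMSO, and was 10.4 and 5.38 kb outside in mESC dTAG and 2CLC dTAG. Defb3 was the member whose start was inside a domain in both DMSO sets and outside in both dTAG sets. In 2CLC DMSO this rests on a domain of 45 kb, with the start less than 1 bin from its edge. With domains of at least 50 kb, or trimmed by 1 bin, Defb3 was no longer inside in 2CLC DMSO. In the unnamed set all 4 were inside the 3045 kb domain.

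**Figure D3:**
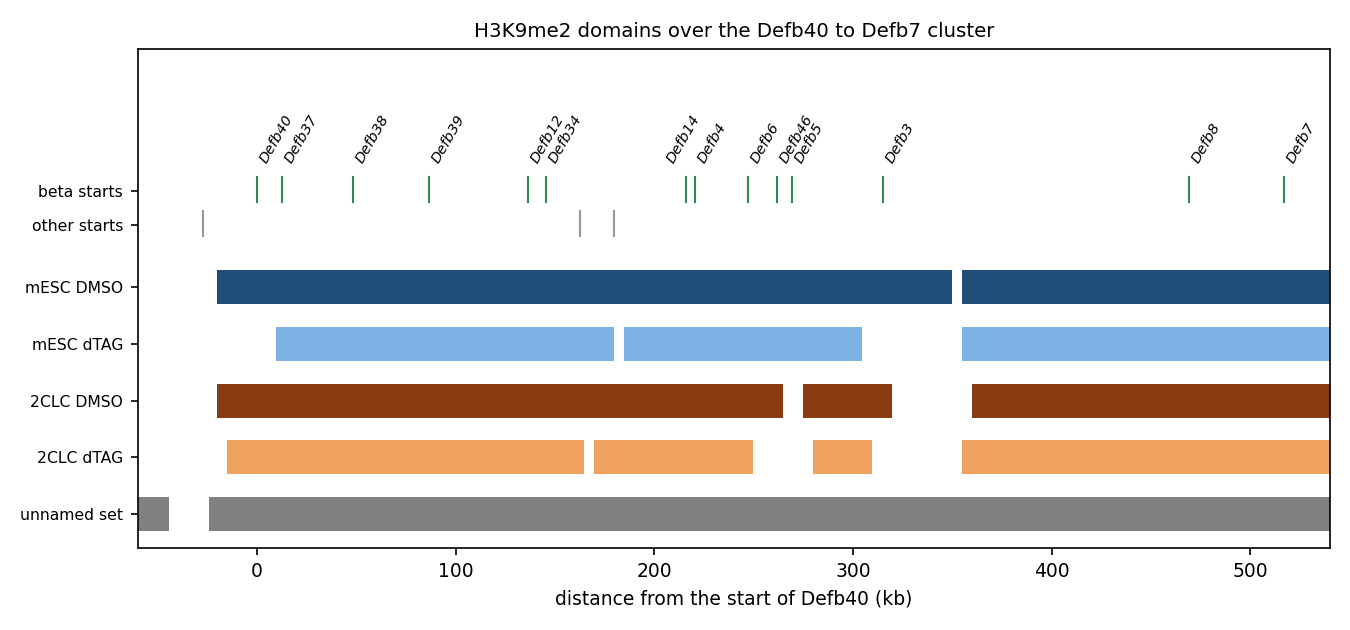
Map of the Defb40 to Defb7 cluster, with distance from the start of Defb40 (x axis, kb), the 14 beta-defensin starts with their symbols, other protein-coding starts, and the domains of each set as bars. The gaps over Defb46, Defb5 and Defb3 are 10 to 50 kb wide, and the 4 sorted sets share a gap between Defb3 and Defb8.

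Where these 4 starts were outside, the nearest domain was 4.6 to 11.9 kb away, at most 3 bins of the grid. The uncovered stretch over Defb3 was 50 kb wide in mESC dTAG and 45 kb in 2CLC dTAG. Over Defb5 it was 10 kb in 2CLC DMSO, and over Defb46 and Defb5 together it was 30 kb in 2CLC dTAG. The cluster as a whole (chr8:18974940-19497775, 522.8 kb) was covered to 99% (DMSO) and 87% (dTAG) in mESCs, and to 90.4% (DMSO) and 84.7% (dTAG) in 2CLCs. Its first and last members were Defb40 and Defb7, and Defb7 was inside a domain in all 5 sets. The cluster also holds Spag11a, Spag11b and Gm45826. Spag11a and Spag11b encode defensin-like proteins of the epididymis, and all 3 starts were in domains in every set. Defb14 and Defb4, whose products attract cells that carry the chemokine receptor CCR6, were in domains in every set as well.

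The Defb33 to Defb13 cluster (chr8:20892669-21948850, 1056 kb) was covered to 100% in each set except 2CLC dTAG, where domains covered 99% of it. All 32 starts were inside in each set. The uncovered part in 2CLC dTAG was a stretch of 10 kb between Defa24, the last alpha-defensin gene of the array, and Defb1, and it held no start. The first member, Defb33, and the last, Defb13, were inside in every set. Defb1 encodes a beta-defensin that epithelia make constitutively. The 9 other protein-coding genes that start within the cluster were in domains in every set too. RefSeq names 6 of them as alpha-defensins (Defa38 for Gm14851, Defa41 for Gm15293, Defa40 for Gm15292, Defa42 for Gm7849, Defa43 for Gm7861 and Defa39 for AY761184), although the annotation used here gives them other symbols.

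The alpha-defensin array is built of repeated sequence. The share of repeated 50-mers, which occur more than once on the same strand of the chromosome, was taken within 25 kb on each side of a start. Its median was 69.9% over the 32 cluster members (range 4.51 to 90.6), against 2.49% over all protein-coding starts on chromosomes 1, 2, 8 and 14. It was 53.5% around Defa21, 90.6% around Defa36 and Defa28, and 30.7% around Defa24, the lowest of the alpha-defensins. For Defa5, Defa2, Defa33 and Defa20 it was 100% of the gene body. Around the 10 beta-defensin starts of the same cluster it was lower, from 4.51% at Defb9 to 12.8% at Defb50, and these were inside domains in every set as well. At repeated positions a read matches several copies equally well, and how far the calls over single alpha-defensin genes rest on such reads was not tested.

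The remaining 18 beta-defensin genes lie in 3 clusters that, in the sorted sets, were each inside or outside domains as a whole. The Defb18 to Defb41 cluster on chromosome 1 (chr1:18236473-18265138, 28.7 kb, 2 members) was covered to 100% in every set. The domain around it was 180 kb (DMSO) and 1115 kb (dTAG) wide in mESCs, 845 kb (DMSO) and 350 kb (dTAG) wide in 2CLCs, and 250 kb wide in the unnamed set. It was thus wider with dTAG than with DMSO in mESCs and narrower in 2CLCs, with both starts inside throughout. The nearest gene before it, Crisp4, which encodes a sperm-binding protein of the epididymis, was inside a domain in all 5 sets. The nearest after it, Tfap2d, 838 kb away, was inside in all but 2CLC dTAG.

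The Defb23 to Defb25 cluster on chromosome 2 (chr2:152459055-152623053, 164 kb, 11 members) had no base in a domain in any of the 4 sorted sets. The nearest domain was 1375 kb (DMSO) and 1385 kb (dTAG) away in mESCs, and 1385 kb (DMSO) and 246.3 kb (dTAG) away in 2CLCs. Over all protein-coding starts outside domains, the median distance to the nearest domain was 315, 146, 329 and 105 kb in the same order, so the cluster lay further from domains than the typical outside start in each. In the unnamed set 2 domains of 20 and 25 kb lay in the cluster, covered 27.4% of it, and held the start of Defb21 and of Gm17416. Defb28 started 0.195 kb from the smaller of them. The flanking genes 6820408C15Rik and Rem1, which encodes a small GTPase, were outside domains in all 5 sets.

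The Defb48 to Defb30 cluster on chromosome 14 (chr14:62977524-63058149, 80.6 kb, 5 members) also had no base in a domain in the sorted sets. The nearest domain was 651.5 kb (DMSO) and 321.5 kb (dTAG) away in mESCs, and 701.5 kb (DMSO) and 311.5 kb (dTAG) away in 2CLCs. For both clusters the distance was smallest in 2CLC dTAG, the set with the largest number of domains. In the unnamed set a domain of 90 kb covered 89.1% of the cluster and held 4 of the 5 starts, and Defb48 lay 1.82 kb outside it. The flanking genes Wdfy2 and Ctsb, which encodes the lysosomal protease cathepsin B, were outside domains in all 5 sets.

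**Figure D4:**
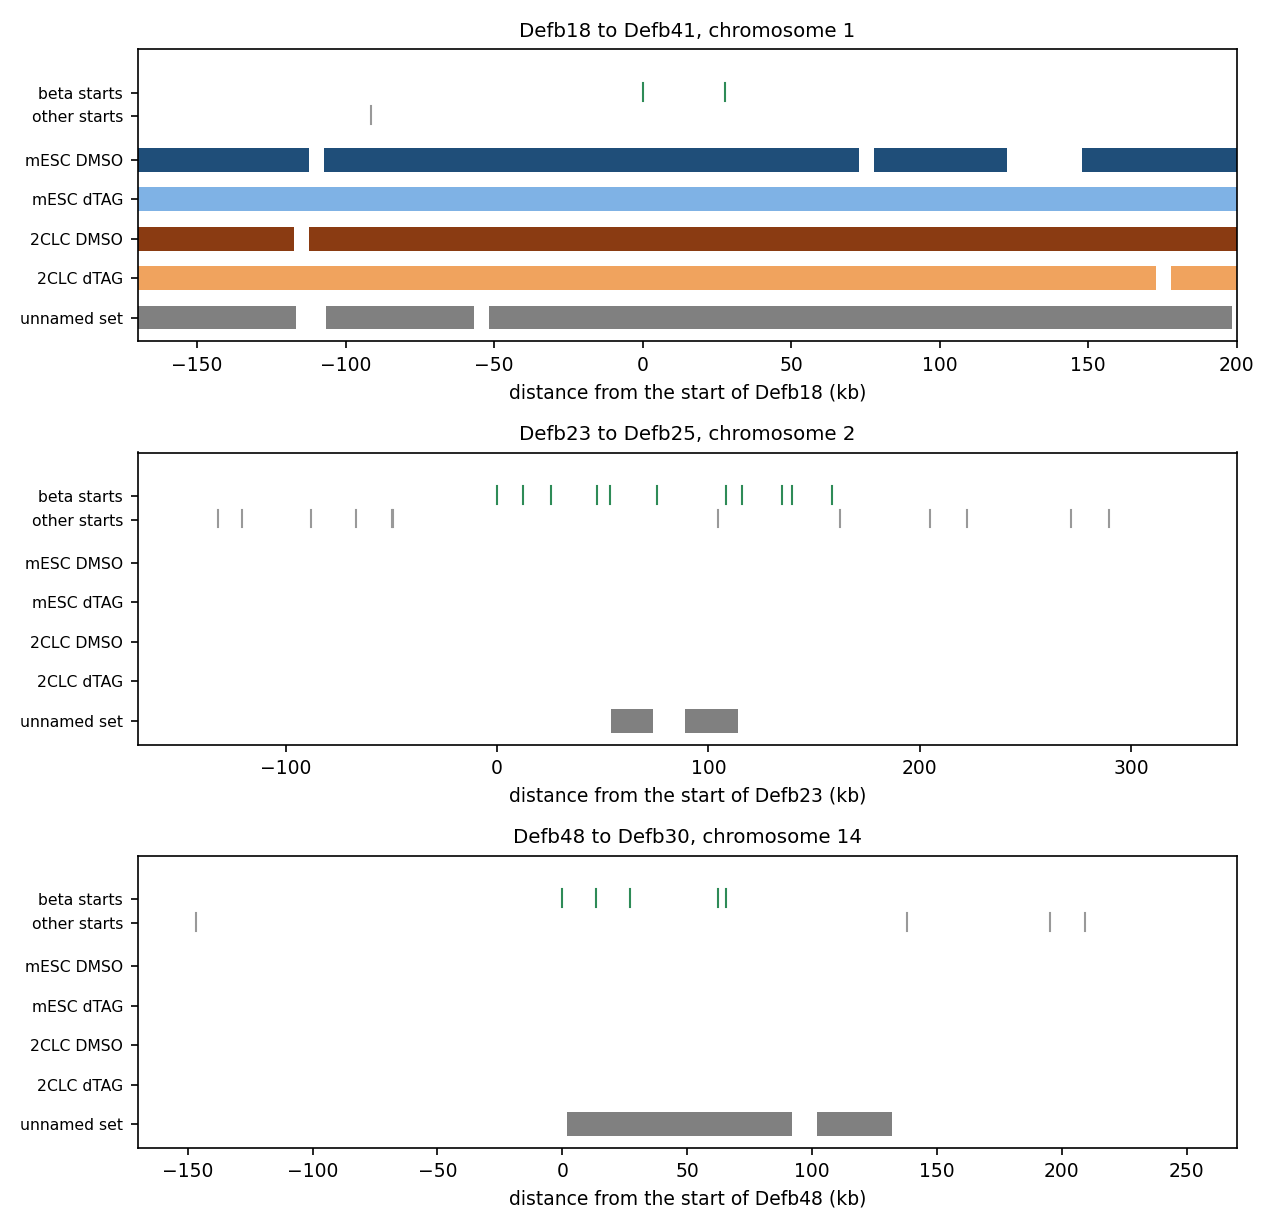
Maps of the clusters on chromosomes 1, 2 and 14, each with distance from the start of its first member (x axis, kb), beta-defensin and other protein-coding starts as ticks, and domains of each set as bars. The chromosome 1 members lie over bars in every set, whereas the windows on chromosomes 2 and 14 hold bars of the unnamed set and none of a sorted set.

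Where a defensin start was in a domain, that domain was wide. The median width over members inside was 2660 (DMSO) and 2640 kb (dTAG) in mESCs and 2655 (DMSO) and 865 kb (dTAG) in 2CLCs, against 640, 390, 735 and 260 kb over all protein-coding starts inside domains. These medians are set by the alpha-defensin cluster, whose 32 members share 1 or 2 domains. In the Defb40 to Defb7 cluster the medians were 370, 170, 285 and 180 kb, below those over all starts in each set. The median distance from a member start to the nearer domain edge was 193, 261, 216 and 99.1 kb, against 105, 55.6, 116 and 43.6 kb over all starts.

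Members inside and outside domains differed in the sequence around them, as genes in general did. In the 50 kb around a start, GC content had a median of 40.2% (36.8 to 43.3) over the 44 members in domains of all 4 sorted sets and of 44.9% (42.8 to 48.3) over the 16 in none. The ranges overlapped between 42.8% and 43.3%, where Defb13 and Defb35 were inside and Defb47 and Defb43 were outside. Over all protein-coding genes the medians were 39.3% for the 3284 starts in all 4 sets and 46.4% for the 14321 in none. Soft-masked repeats made up a median of 46.4% around members in all 4 sets and 26.7% around members in none, against 46% and 27% over all genes. The 4 members that varied had 40.3% to 42% GC, within the range of those in all 4 sets. These are values of 5 clusters, since members of a cluster share their surroundings.

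Gene density did not follow the same order. Members in domains of all 4 sorted sets had a median of 17 other protein-coding starts within 250 kb, those in none had 22, and the median over all genes was 8. Over all protein-coding genes it was 9 for starts in all 4 sets and 9 for those in none. The counts include neighbouring defensin genes, so clustered members have many neighbours by construction. The chromosome 1 members had 2 neighbours and were inside, and the chromosome 14 members had 8 or 9 and were outside.

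**Figure D5:**
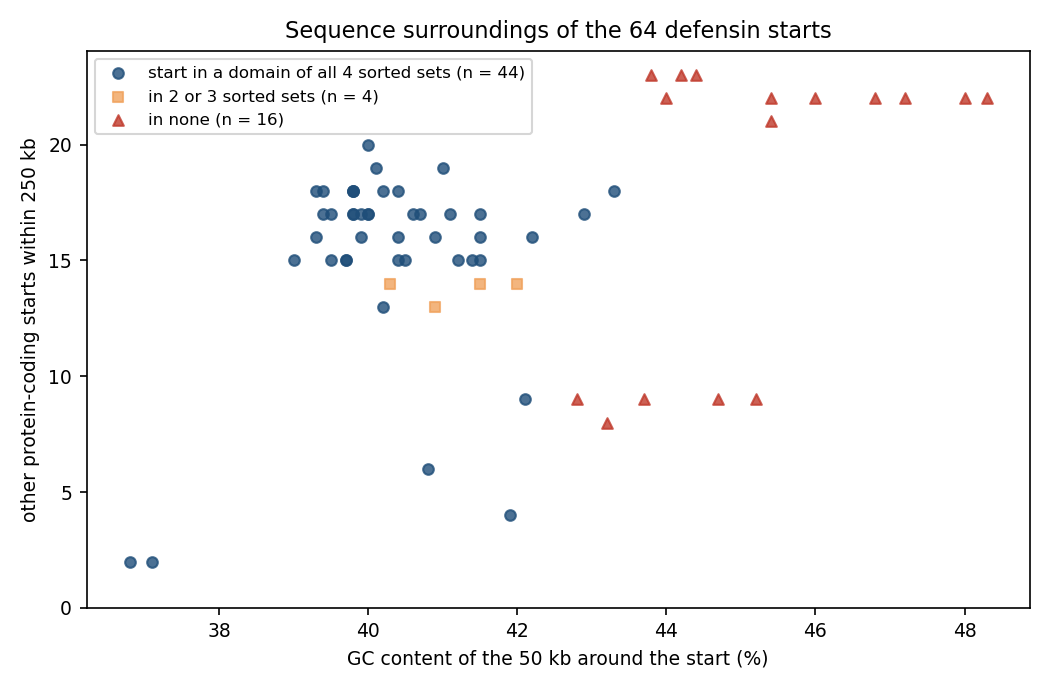
GC content of the 50 kb around each of the 64 defensin starts (x axis, percent) against the number of other protein-coding starts within 250 kb (y axis), with symbols by the number of sorted sets in which the start was in a domain. The 44 starts in all 4 sets have 36.8% to 43.3% GC and the 16 in none have 42.8% to 48.3%; points of a cluster share neighbours and overlapping windows.

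Other genes of host defence, which lie elsewhere in the genome, were placed in the same sets. Of 8 Paneth cell granule genes, 6 were in domains in both mESC sets, 4 in the DMSO set of 2CLCs and 5 in their dTAG set. Reg3b and Reg3g, which encode bactericidal lectins, and Mptx2 were in domains in all 5 sets, and Lyz1, the Paneth cell lysozyme, in none. Mptx1 was inside in all but 2CLC dTAG, Ang4, an antimicrobial ribonuclease, in both mESC sets, and Mmp7, the protease that activates alpha-defensin precursors, in mESC DMSO and 2CLC dTAG. Itln1 was inside in both dTAG sets and outside in both DMSO sets. Of these 8 genes of the same cell type, 4 differed between sorted sets, against 19.1% of all protein-coding starts. All 22 alpha-defensin genes were in a fixed state, but they share a single domain in each set and are not 22 independent cases.

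Of 9 genes for other antimicrobial proteins, 0, 1, 0 and 2 were in domains of the 4 sorted sets. These were Hamp, which encodes the iron hormone hepcidin, in both dTAG sets and S100a9 in 2CLC dTAG. Of 18 genes for WAP four-disulfide core proteins, 14 of them on chromosome 2 as the Defb23 to Defb25 cluster is, 0, 0, 0 and 4 were in domains, namely Wfdc15a, Wfdc9, Wfdc10 and Wfdc11 in 2CLC dTAG. Of 12 receptors, sensors and regulators, 2, 1, 2 and 3 were in domains. Tlr4, the receptor for lipopolysaccharide, was inside in all 5 sets, Atoh1, a transcription factor of secretory cells in the intestine, in both DMSO sets, and Ccr6 and Tlr2 in 2CLC dTAG.

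Beside other clustered families, the defensins were intermediate. Of 61 Serpin genes, which encode protease inhibitors, 72.1%, 67.2%, 63.9% and 60.7% had their start in domains of the 4 sorted sets. Of 113 keratin and keratin-associated genes it was 25.7%, 24.8%, 24.8% and 25.7%, and of 294 olfactory receptor genes on chromosome 2 it was 99.7%, 99.7%, 100% and 99.7%. Among the Serpin genes 21 of 61 were in domains in some of the sorted sets and not in others, against 4 of 64 defensins. The same held for 13 of 113 keratin and keratin-associated genes, 2 of 294 olfactory receptor genes and 19.1% of all protein-coding starts.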

How the data were processed

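H3K9me2 was profiled by ULI-NChIP (antibody ab1220) with matching inputs. The authors deposited 5 lists of domain positions (chromosome, start and end, with no score), in mm10 coordinates. According to the methods, reads were aligned with STAR with multi-mapping reads placed at random among their best locations, duplicates were removed, and domains were seeded on bins with a high log2 ratio of immunoprecipitate to input and extended until the ratio was low. Pooling of replicates was not stated. The submitters' processing notes name STAR 2.7.10, Picard 2.26.0, SAMtools 1.14, bedtools 2.30.0, deepTools 3.5.1 and R 4.1.2. Library depth and replicate values are not analysed here, and a list has no error of its own.

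Starts were taken from the GENCODE M21 annotation and sequence from GRCm38.p6, and overlaps were computed in Python 3.11.15 with numpy 2.4.6 after the functions were tested on simulated data. A start was inside a domain when its base was. Repeated 50-mers occur more than once on the same strand of the same chromosome. Copies in reverse orientation or on other chromosomes were not counted. No test was run, because each condition has a single list. Shares carry Wilson 95% intervals. Genes were named when their state differed between sorted sets, when they were the first or last of a cluster, flanked it or started within it, or when they belonged to a host defence list and lay in a domain, and others named were chosen after their values were seen. Members and lists were chosen with earlier results of these data known. Pla2g2a of the Paneth cell list was not found in the annotation. Alternatives covered transcript starts, gene bodies, domain width and edges, biotypes, clusters left out or weighted equally, cluster extent and unsequenced bases, and, after the data were seen, the 6 genes that RefSeq names as defensins.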

Additional observations from a re-analysis of the deposited data

Results flagged for a closer look

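The unnamed set, which entered no comparison between conditions, held domains where the sorted sets had none. Of the 11 starts of the Defb23 to Defb25 cluster 1 lay in a domain of the unnamed set, and 0 did in each of the 4 sorted sets. Of the 5 starts of the Defb48 to Defb30 cluster 4 lay in a domain of the unnamed set, and 0 did in each sorted set. Both are listed because domains appeared in a set outside the comparisons where the sorted sets had none. The share over all protein-coding starts in the unnamed set was 31.1% on chromosome 2 and 42% on chromosome 14. The 9.09% of the Defb23 to Defb25 cluster was below the former and the 80% of the Defb48 to Defb30 cluster above the latter. With domains of at least 50 kb, the covered share of Defb23 to Defb25 in the unnamed set went from 27.4% to 0%. The unnamed set covered 62.6% of chromosomes 1 to 19 and X, more than any sorted set, and which libraries it came from is not given in the sources used here.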

How the results depend on the processing

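The choice that moved the shares most was the cluster left out. Leaving out each cluster in turn gave shares of 50% to 90.6% in mESC DMSO, 43.8% to 86.8% in mESC dTAG, 46.9% to 88.7% in 2CLC DMSO, 40.6% to 84.9% in 2CLC dTAG and 65.6% to 98.1% in the unnamed set, lowest without Defb33 to Defb13 and highest without Defb23 to Defb25. With clusters weighted equally the shares in the 4 sorted sets were 60%, 57.1%, 58.6% and 55.7%. Starts leaving domains with dTAG numbered 0 to 3 in each cell state over all alternatives, and 0 to 2 with a cluster left out. There were 0 in both without the Defb40 to Defb7 cluster, 3 in both with all biotypes, 3 in mESCs and 1 in 2CLCs with domains trimmed by 1 bin, 3 in 2CLCs with domains widened by 1 bin, and 1 in 2CLCs with domains of at least 50 kb. With clusters widened by 100 kb on each side, the covered share of Defb40 to Defb7 was 87.8%, 76.8%, 81.6%, 76.1% and 96%, that of Defb33 to Defb13 was 95.6%, 95.2%, 95.6%, 87.2% and 96%, first for the 4 sorted sets in the order mESC, 2CLC, with DMSO before dTAG, and then for the unnamed set, and that of the chromosome 8 locus was 95.5%, 92.8%, 94.1% and 97.5% in those sets other than 2CLC dTAG. In the unnamed set it was 12.4% for Defb23 to Defb25 and 42.8% for Defb48 to Defb30. With domains of at least 50 kb it was 0% for Defb23 to Defb25 in the unnamed set, and 81.8% for Defb40 to Defb7 and 96.8% for the locus in 2CLC DMSO. Leaving out unsequenced bases gave 71.4% for the locus in 2CLC dTAG. Wider clusters take in flanking sequence, and fewer domains or members enter the other alternatives, by construction. A gap of 500 kb in place of 1 Mb gave the same 5 clusters. With the RefSeq-named genes, an alternative chosen after seeing the data, no value moved beyond its interval. All 6 start within the Defb33 to Defb13 cluster and in domains of every set, so adding them could only raise the shares. In mESC DMSO the share went from 75% to 77.1%. No paired analysis was possible because the lists hold no replicates. The number of lists, 1 per condition, limits what can be said of any difference between conditions.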
